A study of Arabidopsis thaliana with 6 samples.

Results

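Transcripts of 5 nuclear genes of photosynthesis were followed in Arabidopsis leaf trichomes, the single-celled hairs of the leaf epidermis. They were LHCB4.1 and LHCB4.2, which encode antenna proteins, and RCA, SBPASE and PRK, which encode enzymes of carbon fixation. The 5 are a chosen set. Each had exactly 1 probe set that names no other gene in the platform annotation, among 13356 genes with such a probe set. Other antenna and Calvin cycle genes with such a probe set, LHCB4.3 and AT1G56190, are not among the 5 and are described below. Wild-type plants were compared with the gtl1-1 mutant, a line altered in GTL1, a trihelix transcription factor known as a repressor of trichome growth. Plants of both genotypes were 3 weeks old and had grown in continuous light at 22 °C on medium with 1% sucrose, which supplies fixed carbon from outside. Trichomes had been pulled from rosette leaves with forceps, and each genotype gave 3 biological replicates, whose RNA was hybridised to 1 Affymetrix array each. The labels give no other allele or treatment and do not say how many plants went into a replicate. GTL1 itself has 0 probe sets in that annotation and was not analysed here, so the genotypes are those of the labels.

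Light is captured in the chloroplast by chlorophyll-binding antenna proteins and passed to photosystems I and II, whose electron transport yields ATP and NADPH. The Calvin cycle spends both to fix carbon dioxide. LHCB4 proteins, also known as CP29, are minor antenna subunits that sit between photosystem II and its mobile outer antenna. RCA (Rubisco activase) frees the carbon-fixing enzyme Rubisco from inhibitory sugars, SBPASE (sedoheptulose-bisphosphatase) acts in the regenerating branch of the cycle, and PRK (phosphoribulokinase) makes the sugar that accepts carbon dioxide. All 5 transcripts are abundant in green leaf mesophyll, the tissue that lies beneath the epidermis. In a bulk sample, a lower value from fewer cells of a type cannot be told apart from one that comes from less RNA per cell.

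The values are log2 expression estimates made by the authors with GCRMA, and they ran from 2.14 to 15.5 over the table. Array medians lay between 5.48 and 5.57. Across probe sets, which are not independent replicates, pairs of arrays correlated at 0.992 to 0.996 (Pearson's r) within a genotype and at 0.989 to 0.993 between genotypes. Of the trichome genes listed as markers, 4 of 15 had a probe set that names them alone. SIM, an inhibitor of the cell cycle that keeps trichomes from dividing, lay between 11.43 and 12.29 on the 6 arrays. AT5G06700, the gene TRICHOME BIREFRINGENCE of wall deposition, lay between 11.45 and 12.03. The patterning genes TRY and GIS were dimmer, at 5.78 to 8.20 and 5.34 to 6.62. Precision is limited throughout by the number of arrays, 3 for each genotype.

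In the comparison of gtl1-1 with wild type, both antenna genes were lower on all 3 mutant arrays than on any wild-type array, while the values of the 3 Calvin cycle genes overlapped. LHCB4.2 had the larger difference, 1.99-fold lower in the mutant. LHCB4.1 was 1.31-fold lower. RCA, SBPASE and PRK had means within 1.04-fold of wild type. None of the 5 differences passed limma's test after Benjamini-Hochberg adjustment over all 13682 tested probe sets, of which 126 (0.921%) passed, or 68 with the replicate number as a block. With so few calls, a count of 0 among 5 genes says little about whether they changed. Without adjustment, 2 of the 5 had a limma p under 0.05, both lower in the mutant, and 7.15% of all tested probe sets were of that kind. Genotypes that do not overlap, with the mutant lower, were seen in 2 of the 5 genes and in 10.1% of all tested probe sets, and with the mutant higher in 0 of the 5 and in 10.8%.

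LHCB4.2 read 12.63, 13.16 and 12.30 on the wild-type arrays of replicates 1 to 3, and 12.03, 11.73 and 11.36 on the mutant arrays. The lowest wild-type value was still above the highest mutant value, by less than the spread among the wild-type arrays. The means were 12.70 ± 0.44 and 11.70 ± 0.34 (SD, n = 3 each). The log2 change, mutant minus wild type, was -0.99 ± 0.26 (SE), with a limma p of 0.00656 unadjusted and 0.171 after adjustment. Its 95% interval ran from -1.61 to -0.37 log2 units. Among all tested probe sets, 1.21% had a more negative change and 3.82% a smaller p.

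LHCB4.1 encodes the other widely expressed CP29 isoform. It read 13.18, 13.35 and 12.94 in wild type and 12.62, 12.85 and 12.85 in the mutant. The genotypes were separate, but the lowest wild-type array stood close to the upper pair of mutant arrays. The means were 13.16 ± 0.21 and 12.77 ± 0.13 (SD, n = 3 each). The log2 change was -0.39 ± 0.15 (SE), with a limma p of 0.0366 unadjusted and 0.295 after adjustment, and a more negative change was found for 10.3% of the tested probe sets. The difference between the changes of LHCB4.2 and LHCB4.1 was -0.60 ± 0.30 log2 units (SE over arrays), and for this difference the arrays of the genotypes overlapped.

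RCA read 13.61, 13.85 and 13.27 in wild type and 13.74, 13.63 and 13.40 in the mutant. All 3 mutant values lay inside the wild-type range. The means were 13.58 ± 0.29 and 13.59 ± 0.17 (SD, n = 3 each), a log2 change of 0.01 ± 0.18 (SE, limma adjusted p = 0.985). The 95% interval of the change went from 1.34-fold lower to 1.36-fold higher in the mutant.

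SBPASE read 11.04, 11.58 and 10.70 in wild type and 11.00, 11.41 and 10.99 in the mutant. Again every mutant value fell within the range of wild type. Its log2 change was 0.03 ± 0.24 (SE, limma adjusted p = 0.974), with a 95% interval from 1.46-fold lower to 1.52-fold higher. PRK read 10.98, 11.31 and 10.51 in wild type against 10.94, 11.17 and 10.85 in the mutant, with the same containment. Its log2 change was 0.05 ± 0.22 (SE, limma adjusted p = 0.933), with a 95% interval from 1.37-fold lower to 1.48-fold higher. For these 3 enzymes, 3 arrays per genotype leave any change inside those intervals compatible with the values. The sign of each of their changes turned in at least 3 of the 14 alternative settings.

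**Figure D1:**
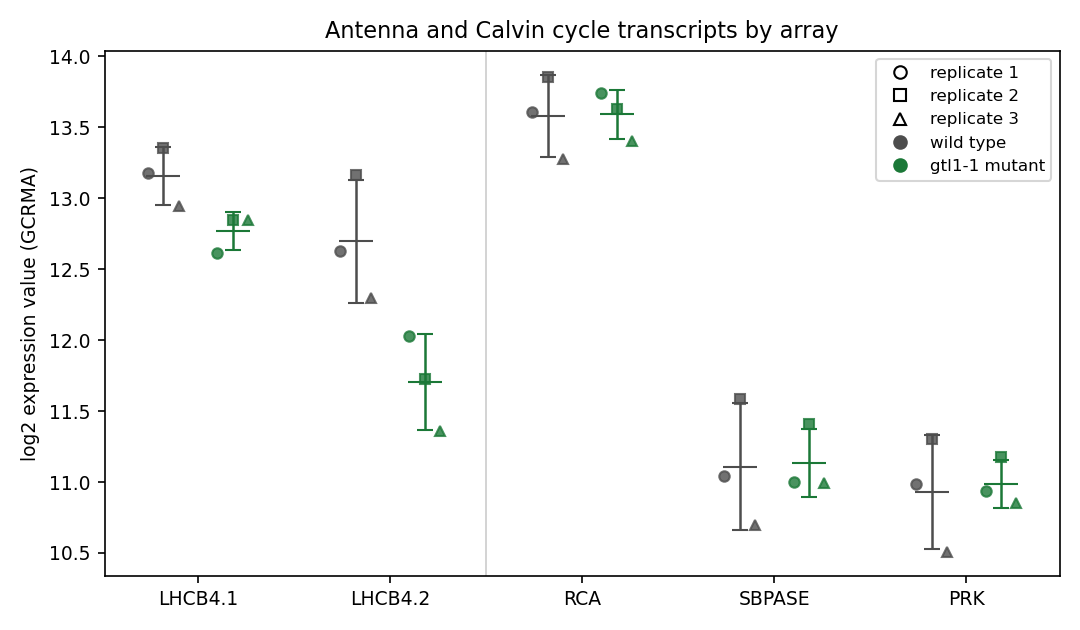
Log2 expression values (vertical axis) of the 5 genes on each array, wild type in grey and gtl1-1 in green. Point shapes mark the replicate number, and crosses and bars the mean and SD of 3 arrays. The mutant points of LHCB4.2, at 11.36 to 12.03, and of LHCB4.1, at 12.62 to 12.85, lie below all wild-type points, and those of RCA, SBPASE and PRK lie inside the wild-type range.

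The wild-type arrays differed among themselves in all 5 genes in the same way. Replicate 2 was the highest wild-type array and replicate 3 the lowest for each of them. Replicate 2 lay above the wild-type mean by 0.20 log2 units for LHCB4.1 and by 0.28 to 0.47 for the other genes. Deviations of replicate 3 from the wild-type mean ran from -0.42 for PRK to -0.21 for LHCB4.1. The same order of wild-type arrays was found for 20 of 21 other tested genes of the photosynthesis lists described below, and for 19.0% of all tested probe sets. PORB was the exception. The mutant arrays had no order common to all 5 genes. In the mutant, SBPASE and PRK were highest on replicate 2, and RCA and LHCB4.2 were highest on replicate 1. Replicate 3 was the lowest mutant array for LHCB4.2, RCA, PRK and, by a small margin, SBPASE. For LHCB4.1 the lowest mutant array was replicate 1. What sets the order of the wild-type arrays was not tested.

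The estimates depended on which wild-type arrays were used. The change of LHCB4.2 ranged from -0.76 without wild type replicate 2 to -1.19 without wild type replicate 3, and its unadjusted limma p stayed under 0.05 in each of the 6 fits. LHCB4.1 ranged from -0.29 to -0.50 under the same omissions. Its unadjusted p was under 0.05 in 1 of the 6 fits, the one without wild type replicate 3, where it was 0.0151 by limma (adjusted p = 0.214). The 3 Calvin cycle genes moved to both sides of 0. Without wild type replicate 3 their changes were -0.14 for RCA, -0.18 for SBPASE and -0.16 for PRK, and without wild type replicate 2 they were 0.15, 0.26 and 0.24.

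**Figure D2:**
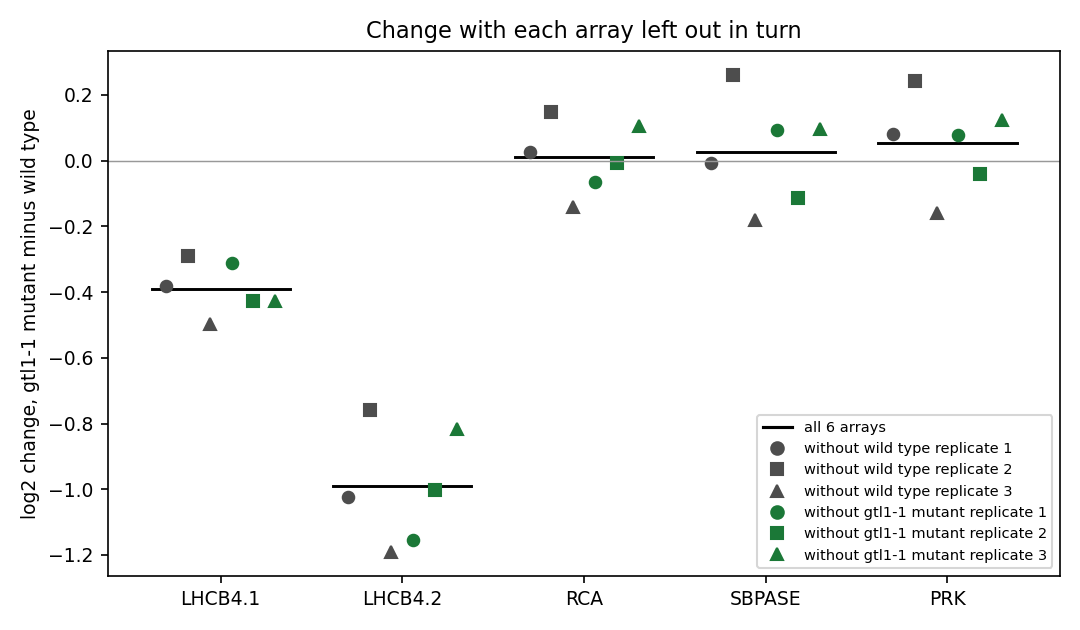
Log2 change, mutant minus wild type (vertical axis), of each gene from all 6 arrays (black line) and with 1 array left out (symbols, grey for a wild-type array and green for a mutant array). LHCB4.1 and LHCB4.2 are below 0 in all fits, from -0.29 to -0.50 and from -0.76 to -1.19, while RCA, SBPASE and PRK lie on both sides of 0.

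Antenna and carbon fixation genes were then set against each other within each array. Every gene was first centred on its mean over the 6 arrays, and the mean of the Calvin cycle genes was subtracted from that of the antenna genes. This difference was 0.33, 0.32 and 0.43 log2 units on wild-type arrays 1 to 3. On mutant arrays 1 to 3 it was -0.26, -0.48 and -0.34. The SD among wild-type arrays was 0.06 with both antenna genes, 0.08 with LHCB4.2 alone and 0.17 with LHCB4.1 alone. The last is close to the SD of 0.21 of LHCB4.1 itself. Among mutant arrays these SDs were 0.11, 0.29 and 0.20, against 0.34 for LHCB4.2 itself and 0.13 for LHCB4.1 itself. On mutant replicates 1 and 3, LHCB4.1 deviated from its mutant mean by -0.15 and 0.08, and LHCB4.2 by 0.32 and -0.35. These opposite deviations partly cancel in the mean of both genes. The genotypes differed by -0.72 ± 0.07 (SE), so that relative to RCA, SBPASE and PRK the mean of LHCB4.1 and LHCB4.2 was 1.65-fold lower in the mutant. LHCB4.3, described below, is not part of this contrast and differed in the other direction. A test is not given, because the genes were chosen with earlier results of these arrays known.

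Between arrays of the same replicate number, the mutant minus wild-type difference of this contrast was -0.59, -0.79 and -0.77 for numbers 1, 2 and 3. Leaving out 1 array gave -0.66 at the smallest, without gtl1-1 mutant replicate 2, and -0.77 at the largest, when gtl1-1 mutant replicate 1 was omitted. LHCB4.2 supplied the larger share. With LHCB4.2 alone on the antenna side the genotypes differed by -1.02 ± 0.18, and with LHCB4.1 alone by -0.42 ± 0.15. Taken pair by pair, LHCB4.2 was separate between genotypes against each of the 3 Calvin cycle genes, with differences that ran from -1.05 for PRK to -1.002 for RCA. LHCB4.1 was separate against RCA (-0.40) and PRK (-0.44) and overlapped against SBPASE (-0.41).

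**Figure D3:**
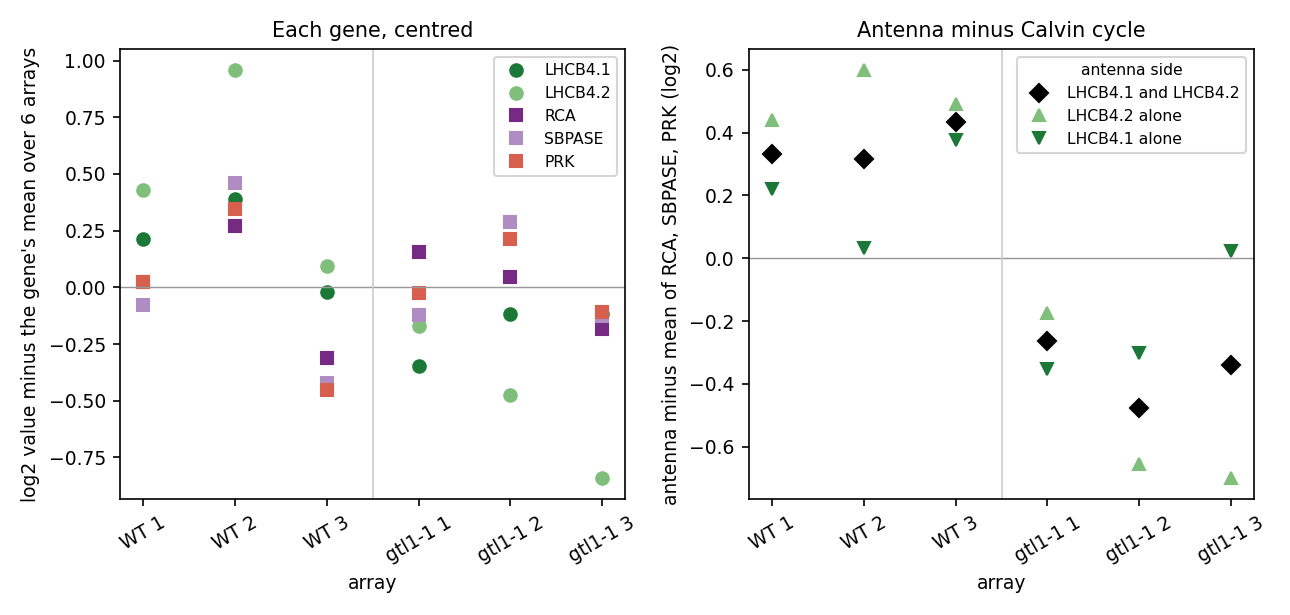
Left, log2 value of each gene minus its mean over the 6 arrays, by array (horizontal axis). Right, the antenna value minus the mean of RCA, SBPASE and PRK on each array, for both LHCB4 genes (diamonds) and for each alone (triangles). Wild-type diamonds lie at 0.32 to 0.43 and mutant diamonds at -0.48 to -0.26.

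All 5 genes were among the brighter probe sets of every array. RCA was the highest ranked, between position 36 and 104 of 22746 probe sets, and was the only one of the 5 to stay in the top percentile on all arrays. LHCB4.1 ranked between 93 and 236. LHCB4.2 ranked 247, 126 and 350 on the wild-type arrays, and 465, 628 and 861 on the mutant arrays. By genotype mean it went from position 229 to 626, and RCA from 60 to 50. SBPASE was at 1026 and 1008 and PRK at 1142 and 1108, which are percentiles between 93.4 and 96.8 on single arrays. Ranks set the signals of different probes against each other, and the signal of a probe also depends on how well it binds its target, so they describe brightness and not molecules per cell.

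By the same probe sets, the other measured antenna gene behaved differently. LHCB4.3 encodes a further CP29 isoform. It read 9.84, 10.14 and 9.65 in wild type and 10.61, 10.57 and 10.04 in the mutant. Its mean was higher in the mutant, though wild type replicate 2 lay above mutant replicate 3. The log2 change was 0.53 ± 0.20 (SE), with a limma p of 0.0343 unadjusted and 0.289 after adjustment, opposite in sign to those of LHCB4.1 and LHCB4.2. With 1 array omitted, the unadjusted p was under 0.05 in 2 of 6 fits. LHCB4.3 was one of 3 antenna genes with a probe set of their own, among 21 listed, so the major antenna genes of both photosystems were not analysed here.

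The tested nuclear genes of the photosystems themselves had lower values in the mutant. The listed photosystem genes of the chloroplast genome, described below, did not share this, though psbJ, outside that list, was also lower. Of 24 listed nuclear genes of photosystems I and II, 5 were tested. All 5 had negative changes with a median of -0.42, against -0.01 over all tested probe sets. The genotypes did not overlap in any of the 5, with the mutant lower, as in 10.1% of all tested probe sets. Limma called 0 of the 5 after adjustment over all probe sets. PSAN, a subunit of photosystem I on the lumen side, where plastocyanin docks, went from 13.12 ± 0.19 to 12.46 ± 0.24 (SD, n = 3 each), a log2 change of -0.66 ± 0.17 (SE), with a limma p of 0.00588 unadjusted and 0.167 after adjustment. PSAE-1, a stromal subunit of photosystem I near the ferredoxin docking site, had a change of -0.40 ± 0.14. Of the photosystem II genes, PSBW and PSBY, which encode small membrane proteins, had changes of -0.57 ± 0.15 and -0.42 ± 0.18. PSB27, whose product helps assemble photosystem II, had one of -0.32 ± 0.15 and was the only one of the 5 with an unadjusted p above 0.05.

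The other steps of the light reactions had few measured members. ATPC1, the gamma subunit of the chloroplast ATP synthase, overlapped between genotypes, with a change of -0.07 ± 0.16. It was the 1 tested gene of 10 listed for electron transport and ATP synthesis. Of chlorophyll synthesis, 2 of 12 genes were tested. PORB, which reduces protochlorophyllide in the light, read 11.18, 10.98 and 11.19 in wild type and 10.61, 10.11 and 10.56 in the mutant. The genotypes were well apart, and PORB did not share the order of wild-type arrays seen above. Its change was -0.69 ± 0.17 (SE), with a limma p of 0.0045 unadjusted and 0.146 after adjustment. CHLM, the methyltransferase earlier in the pathway, had one of -0.29 ± 0.19 and overlapped.

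Beyond RCA, SBPASE and PRK, the Calvin cycle list held 1 tested gene, AT1G56190, with a log2 change of 0.31 ± 0.20. The 4 tested genes of that list, among 24, had a median change of 0.04 and 0 had an unadjusted p under 0.05. Photorespiration, which recycles the product of Rubisco's reaction with oxygen, was represented by 3 genes of 11. HPR, the peroxisomal hydroxypyruvate reductase, had a change of 0.03 ± 0.32. The loci AT1G80380 and AT1G11860 had changes of -0.07 ± 0.12 and 0.11 ± 0.23. None of the 3 had an unadjusted limma p under 0.05. Over all tested probe sets, 7.15% had such a p with the mutant lower and 7.8% with the mutant higher. A count of 0 among so few genes therefore says little about whether they changed. Genes of antenna regulation and insertion, 15 in the list, had 0 probe sets that name them alone.

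Transcripts made from the chloroplast genome were read as a further comparison. Of 9 listed genes, 8 were tested, and limma gave 0 of them an unadjusted p under 0.05. The shares over all tested probe sets were 7.15% with the mutant lower and 7.8% with the mutant higher. The median change of the 8 genes was 0.16, with 6 positive and 2 negative. The photosystem genes among them overlapped between genotypes. Their changes were 0.64 for psbB, 0.59 for psbC, 0.18 for psaB, 0.14 for psbA and -0.11 for psbD. Wild type replicate 3 was the lowest wild-type array for all 8 of the tested genes in the list. The Rubisco large subunit gene rbcL read 7.96 there, against 9.32 and 9.65 on the other wild-type arrays and 8.89, 9.75 and 9.95 in the mutant. The photosystem II gene psbC read 7.06 there, against 8.85 and 9.77 on the others. psaA lay at or near the lowest value of the table, between 2.14 and 2.26, and was not tested.

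Over all these lists, 21 genes other than the 5 were tested, and limma called 0. Without adjustment 5 had a p under 0.05 and were lower in the mutant, namely PSBW, PSBY, PSAE-1, PSAN and PORB. LHCB4.3 was the only one of that kind that was higher. The corresponding shares of all tested probe sets were 7.15% lower and 7.80% higher. The count of 5 became 3 without wild type replicate 1, without wild type replicate 2 or without gtl1-1 mutant replicate 2. PSBW, PSAN and PORB had an unadjusted p under 0.05 in each of the 6 fits with 1 array omitted, PSAE-1 in 3 and PSBY in 1. The lists hold few measured genes, and a difference between the light reaction genes and the carbon fixation genes was not tested.

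**Figure D4:**
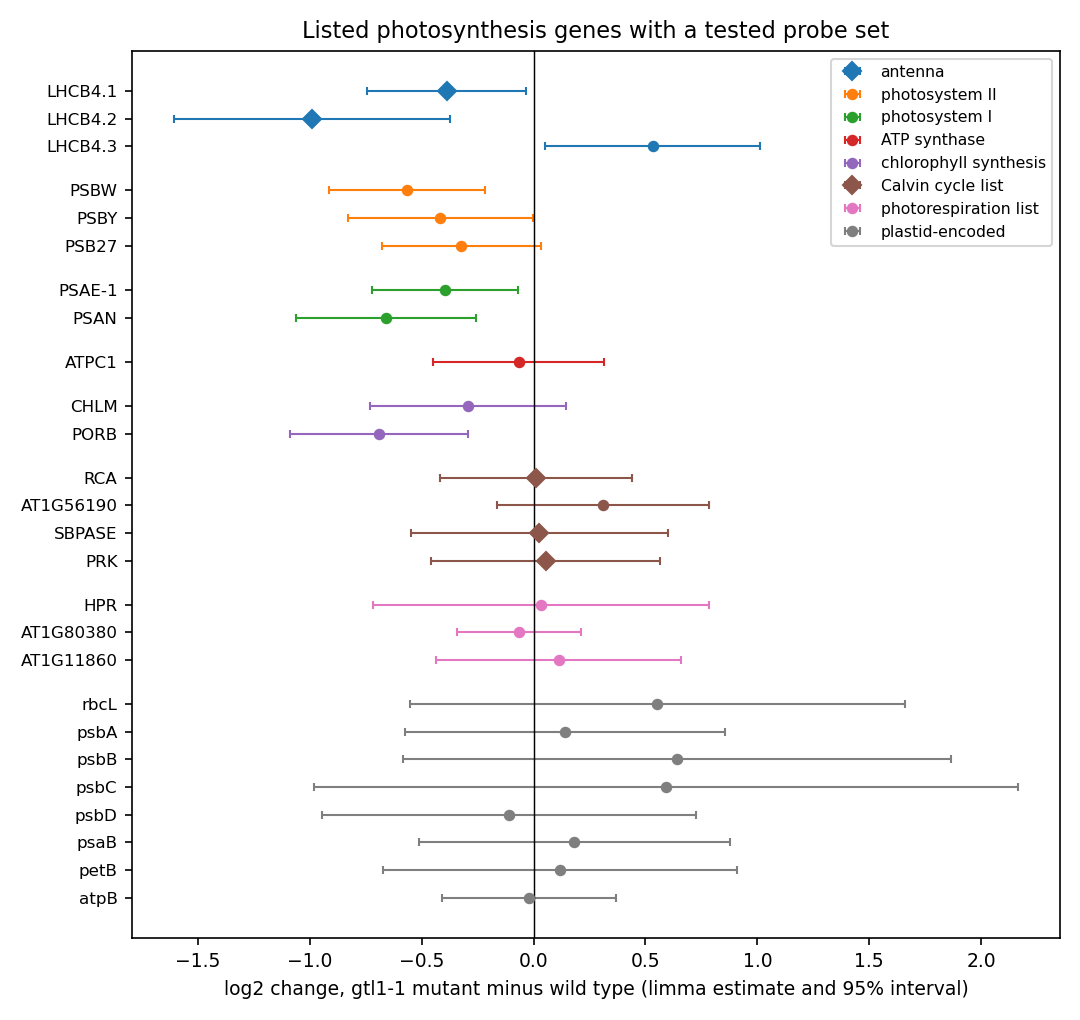
Log2 change, mutant minus wild type (horizontal axis), with its 95% interval from limma, for the listed photosynthesis genes with a tested probe set. Colours mark the list and diamonds the 5 genes LHCB4.1, LHCB4.2, RCA, SBPASE and PRK. The nuclear photosystem genes lie between -0.66 and -0.32, and RCA, SBPASE and PRK between 0.01 and 0.05. The listed plastid-encoded genes, among them genes of both photosystems, lie between -0.11 and 0.64. The widest interval is that of the plastid-encoded psbC, from -0.98 to 2.16.

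The profiles most like those of LHCB4.1, LHCB4.2 and RCA were looked up among 7423 genes with a tested probe set of their own. Likeness was the root-mean-square difference over the 6 arrays after each gene was centred on its mean. For LHCB4.1 the nearest were AT4G17560, AT2G24020 and PSBY, at 0.04, 0.04 and 0.05 log2 units. LHCB4.2 had more distant neighbours, AT2G42220, AT5G57345 and AT1G07700, at 0.15, 0.15 and 0.16. Profiles were not scaled, so a gene that varies more over the arrays, as LHCB4.2 did, tends to lie further from others. RCA was nearest to AT3G22530, AT4G16410 and psbK, a photosystem II gene of the chloroplast genome, at 0.06, 0.07 and 0.07. Among the 5 genes, SBPASE and PRK were the closest pair at 0.08. LHCB4.1 lay nearer to RCA, at 0.26, than to LHCB4.2, at 0.42.

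Markers of other cells were read beside these results. Of the mesophyll and pavement cell markers listed, 0 of 8 and 0 of 5 had a probe set of their own. The amount of mesophyll RNA in the samples was therefore not tested. Stomatal lineage markers had 3 of 10. Their summed linear signal was 91.8 to 175 in wild type and 82.1 to 116 in the mutant, with MUTE, which marks stomatal precursors, at 3.06 to 3.74 log2 units, below the filter. SPCH, the factor that starts the stomatal lineage, was lower on all mutant arrays (log2 change -0.55 ± 0.27, limma adjusted p = 0.397), and FMA overlapped (0.21 ± 0.33). The phloem transporter SWEET11, 1 of 5 listed, overlapped between genotypes at 14.5 to 40.8 and 29.4 to 43.1. The 4 trichome markers summed to 5866 to 7102 in wild type and 7086 to 9251 in the mutant, with GIS (0.84 ± 0.20) and AT5G06700 (0.34 ± 0.13) higher on all mutant arrays, SIM at 0.12 ± 0.23 and TRY at -0.99 ± 0.50, 0 of them called by limma. RCA, SBPASE and PRK, which are also mesophyll transcripts, had changes of 0.01 to 0.05. Their intervals, given above, lay on both sides of 0. They reached 1.34-fold lower for RCA, 1.46-fold lower for SBPASE and 1.37-fold lower for PRK. A 1.31-fold decrease, that of LHCB4.1, lies inside each of these intervals. The part of the marker cells and of RNA from leaf tissue in the values of LHCB4.1 and LHCB4.2 was not tested.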

How the data were processed

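Groups and replicate numbers came from the labels. The deposited log2 values, 1 per probe set and array, are GCRMA estimates according to the submitters' processing notes (version not given in the sources used here). GCRMA adjusts the background with the probe sequences, applies quantile normalisation and combines the probes of a set, and it compresses dim probe sets onto a floor, far below the 5 genes. The log2 scale was inferred from the range of values. Per the labels' protocols, the labelling kit starts at the 3′ end of transcripts.

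Of 22810 probe sets, 64 controls were left out. Probe sets above the 40th percentile of their array on at least 3 arrays were tested, 13682 in all. Names came from the platform annotation (13513 probe sets name 1 gene, 503 several, 8730 are unnamed here) and a gene table of TAIR10.1, matched by locus, or by symbol for plastid genes. No coordinates are given, since no source used here names the array's build. Protein and promoter sequences were not used here, so the planned comparisons of protein identity and promoter motifs were not made. Limma 3.58.1 (lmFit, eBayes; R 4.3.3) was run on all of these with genotype as the only term, two-sided, and a call needed an adjusted p (Benjamini-Hochberg) under 0.05. The procedure was tested on simulated data with independent noise for each probe set. Differences between arrays that many genes share were not simulated. A level of a gene with several probe sets is that of the brightest.

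The 5 genes, the 9 pathway lists, the 5 marker lists and the tests were chosen with earlier results of these data known. Named genes were the 5, listed genes with a tested probe set of their own, and the 3 nearest profiles of LHCB4.2, LHCB4.1 and RCA. Deviations from the genotype means correlated at 0.127, 0.275 and 0.118 between arrays numbered 1, 2 and 3. Between arrays of different numbers the values ran from -0.212 to 0.0873, the highest not far below that of number 3. All these values are tied to one another, because deviations cancel within a genotype. Every value for equal numbers was over 0.1, so the numbers may pair the arrays, on this weak evidence from the data only. The fits and SEs reported do not use the pairing, and the replicate block is an alternative.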

Additional observations from a re-analysis of the deposited data

How the results depend on the processing

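LHCB4.1 and LHCB4.2 stayed negative and uncalled by limma in all 14 alternatives, with adjusted p from 0.193 to 0.57 and from 0.093 to 0.468. With the replicate block their adjusted p was 0.298 and 0.119. The block changed no call of the 5 genes or of the listed genes. The Calvin cycle genes stayed uncalled, and some signs turned. With array weights RCA was -0.046 and PRK -0.0081. Leaving out 1 array gave -0.14 to 0.15 for RCA, -0.18 to 0.26 for SBPASE and -0.16 to 0.24 for PRK. The number of called probe sets, 126, became 8 when dim probe sets were kept, 68 with the replicate block and 31 to 81 with 1 array left out, and rose to 141 with renewed quantile normalisation, 149 with a variance trend and robust estimation and 178 with array weights. The 5 listed genes lower at an unadjusted p under 0.05 became 3 to 7 with 1 array left out. The contrast of antenna minus Calvin cycle genes was -1.02 with LHCB4.2 alone and -0.42 with LHCB4.1 alone, and ran from -0.77 to -0.66 with 1 array left out. The cause of these shifts was not tested. With 3 arrays per genotype, any change within the intervals given for RCA, SBPASE and PRK stayed compatible with the values. The 5 genes lay far above the background floor.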
